A study of Caenorhabditis elegans with 12 samples.

Results

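The genes described here are 10 of the 46778 genes of the deposited table: irg-4, irg-5, C17H12.8, dod-17, dod-22, dod-24, F55G11.2, F55G11.4, F55G11.8 and K08D8.4. They were taken by gene symbol as CUB-like and related infection response genes that are low in pmk-1 worms, so their low level in pmk-1 worms chose them and is given below as a description, with no test. The study sequenced total mRNA and ribosome footprints (ribosome-protected fragments, RPF, the pieces of mRNA shielded by a translating ribosome) in whole Caenorhabditis elegans larvae. Its 6 groups of 2 libraries were the wild type strain N2 (WT), ced-3(n717) and pmk-1(km25), each in both assays, which makes 12 libraries from 6 worm samples.

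Every group received the same handling. Embryos obtained by bleaching young adults hatched in M9 buffer over 24 h, and the larvae then fed on OP50, a laboratory strain of Escherichia coli, for 18 h at 20 °C. The labels name no pathogen for any group. The time of harvest was set by WT worms, of which over 90% had reached the L3 stage (the third larval stage), and all samples carry the stage label L3. ced-3 encodes a caspase and pmk-1 a p38 MAP kinase, and both alleles act in the whole animal. The replicates are called independent and biological, but separate cultures are not mentioned, so p-values measure only the spread between these samples.

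In the worm intestine, PMK-1 is the last kinase of the TIR-1, NSY-1 and SEK-1 cascade and acts on the transcription factor ATF-7 to keep defence genes on and to raise them during infection. Genes with a CUB-like domain form a nematode family, and many of them are induced by bacterial pathogens such as Pseudomonas aeruginosa. The prefix irg stands for infection response gene, and promoters of irg-4 and irg-5 are widely used as fluorescent reporters of the intestinal immune response. The prefix dod stands for downstream of DAF-16: dod-17, dod-22 and dod-24 were named as genes whose level depends on the insulin receptor DAF-2 and the transcription factor DAF-16.

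All 10 genes are annotated as protein coding in WBcel235. Of these, 9 lie on chromosome IV, and irg-5 lies on chromosome V at 13737010 to 13738474. C17H12.8 is at 6818703 to 6820575 of chromosome IV and irg-4 at 12435833 to 12438236. The other 7 share a stretch of 70.9 kb, from 12907469 to 12978343, in the order K08D8.4, dod-24, F55G11.8, dod-22, F55G11.2, F55G11.4 and dod-17. Coding lengths are alike: 9 of the 10 span 1023 to 1083 bases, and F55G11.8, F55G11.2, F55G11.4 and dod-17 have exactly 1023. K08D8.4 is longer, with 1684 coding bases over its annotated transcripts. No member overlaps another protein coding gene, C17H12.8 and F55G11.4 each overlap 1 annotated piRNA gene on their own strand, and dod-22 and F55G11.2 end 52 bases apart on opposite strands.

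Library totals ranged from 15471380 to 17150137 counts in mRNA and from 6708805 to 10115985 counts in RPF. Levels are in CPM (read counts scaled to the library's TMM-adjusted size), and 3 counts, the limit that a count of 0 allows, equal at most 0.203 CPM in mRNA and 0.404 CPM in RPF on that scale (counting error only). All 10 genes passed the low-count filter in every fit. Reads on the pmk-1 gene itself remained in pmk-1 worms, at 35.5 and 35.3 CPM in mRNA beside 37.1 and 35.5 CPM in WT, and at 25.04 and 25.42 CPM in RPF beside 47.2 and 52.3 CPM in WT. Its RPF fold was -0.98 ± 0.15 on the log2 scale (SE, edgeR adjusted p = 0.136; 0.00108 to 0.800 over the alternatives), and the difference was called by DESeq2 and without the low-count filter. ced-3 mRNA was 3.66 ± 1.93 CPM in WT and 5.92 ± 0.704 CPM in ced-3 worms (SD, n = 2), and counts summed over a whole gene do not check either allele. Markers of intestine, hypodermis, pharynx, body wall muscle, neurons and germline were all detected in every group of whole worms.

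One library stood apart for these genes, the RPF library of pmk-1 replicate 2. Among the 9 members with counts in both pmk-1 RPF libraries, replicate 2 was higher than replicate 1 in 9, with a median ratio of 2.22 (range 1.01 to 13.7), while 49.4% of all genes were higher in replicate 2. In mRNA of the same worms, replicate 2 was higher for 3 of 9, with a median ratio of 0.951. Other genes showed it too: among 43 other genes that were lower in pmk-1 mRNA, RPF replicate 2 was higher for 32 of the 40 with counts in both libraries (median ratio 1.53) and mRNA replicate 2 for 34 of 42 (median ratio 1.27). catp-3, another gene that depends on PMK-1, had 1 and 226 counts in the pmk-1 RPF replicates and 1 and 29 in mRNA. Whether the reads of replicate 2 came from pmk-1 worms alone was not tested, so the levels, shares and RPF to mRNA ratios printed for replicate 2 may not be those of pmk-1 worms alone. Results that rest on the pmk-1 RPF libraries are therefore given for each replicate.

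**Figure D1:**
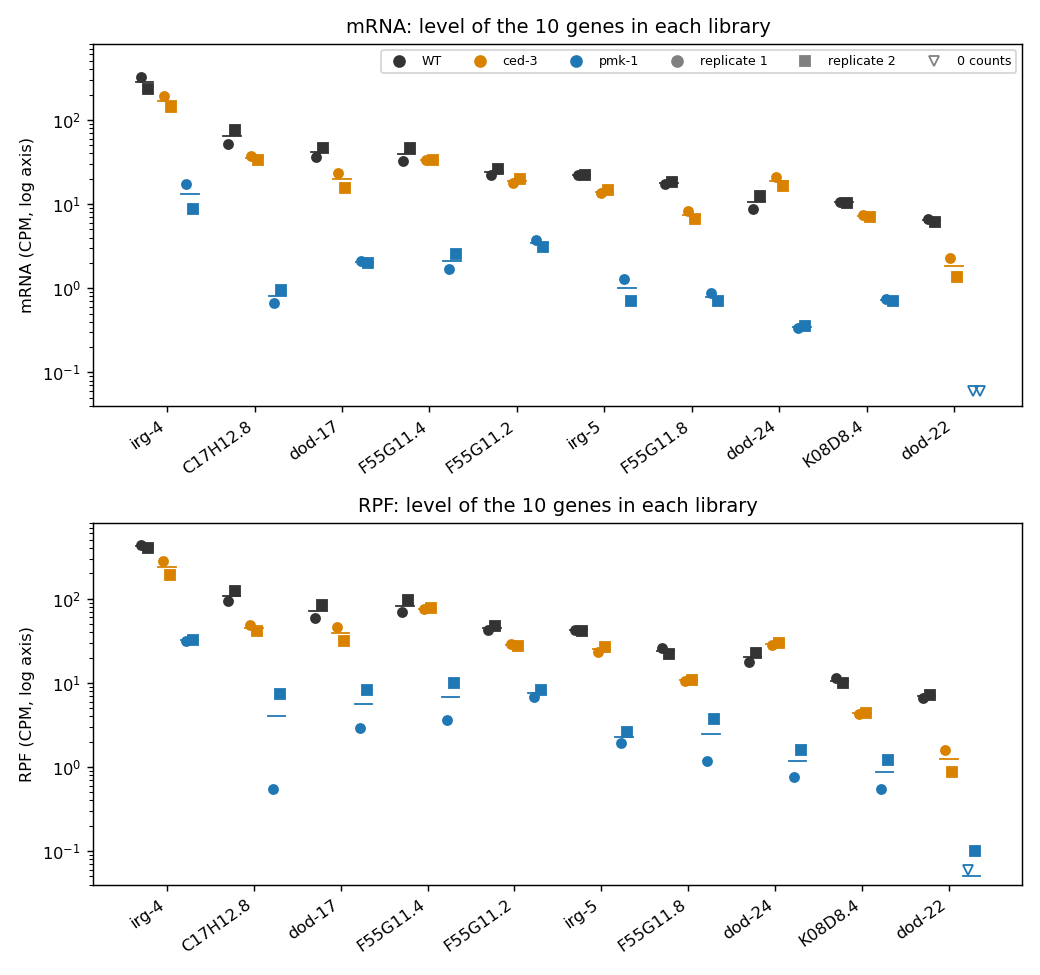
CPM of the 10 genes in each mRNA library (upper panel) and RPF library (lower panel) on log axes, with circles for replicate 1, squares for replicate 2, short lines for the group mean and open triangles for 0 counts. Every pmk-1 library sits below every WT library for each gene, ced-3 libraries lie near or below WT except for dod-24, and the pmk-1 RPF replicates of C17H12.8 (0.542 and 7.43 CPM) are the farthest apart.

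In WT worms the 10 genes spanned a wide range of levels, and irg-4 dominated. Its mRNA was 325 and 236 CPM in the WT libraries, 54.3% of the scaled mRNA reads of the 10 genes, and its RPF was 441 and 406 CPM. Per kilobase of exon, irg-4 was at 255 CPM, the 96.9th percentile of 12941 protein coding genes tested. C17H12.8 followed at 58.5 CPM per kilobase, then dod-17 at 36.2, F55G11.4 at 35.5, F55G11.2 at 22.5 and irg-5 at 20.0 CPM per kilobase. The lower end held F55G11.8 at 15.3, dod-24 at 9.09, K08D8.4 at 5.87 and dod-22 at 5.10 CPM per kilobase, the last at the 34.4th percentile. Of the 9 neighbouring pairs in this order, only dod-17 and F55G11.4 overlapped between their WT mRNA libraries. RPF per kilobase of coding sequence kept irg-4 first (409 CPM) and C17H12.8 second (104 CPM), and here 3 of 9 neighbouring pairs overlapped: C17H12.8 with F55G11.4, F55G11.4 with dod-17, and dod-22 with K08D8.4.

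In pmk-1 worms, all 10 genes were far below WT in both assays, which is what they were chosen for. The 10 summed to 28.8 and 19.9 CPM in pmk-1 mRNA beside 533 and 501 CPM in WT, and to 50.2 and 75.3 CPM in pmk-1 RPF beside 812 and 858 CPM in WT. All 10 were lower in both pmk-1 libraries than in both WT libraries, in mRNA and in RPF, where 23.6% and 21.8% of all genes tested met the same condition in mRNA and RPF. Over all genes, edgeR called 57 of 13536 different between pmk-1 and WT mRNA (0.421%; 0.392% lower) and 23 of 12633 in RPF (0.182%; 0.166% lower). In whole worms, fewer cells of a type and less RNA per cell cannot be told apart. The summed level of 10 intestinal markers was 4992 to 5305 CPM in pmk-1 mRNA and 5484 to 5907 CPM in WT, and 7886 to 7980 CPM in pmk-1 RPF beside 8933 to 10005 CPM in WT, with none at 0. By edgeR 0 of the 10 passed in pmk-1 worms (1 in mRNA and 0 in RPF at an unadjusted p under 0.05), and DESeq2 called 0. The 6 pharyngeal markers summed to 2527 to 2887 CPM in pmk-1 mRNA beside 1868 to 2100 CPM in WT, and the 8 hypodermal ones to 240 to 383 CPM beside 188 to 202 CPM. In RPF the pharyngeal sum was 2378 to 2545 CPM beside 2080 to 2285 CPM, and the hypodermal one 351 to 473 CPM beside 302 to 379 CPM. Gene by gene, the median log2 fold of the pharyngeal markers was 0.17 in mRNA and -0.23 in RPF (4 of 6 below 0 in RPF). For the hypodermal markers it was 0.19 and -0.09 (4 of 7 below 0 in RPF). The furthest of these was the cuticle collagen gene dpy-7, at a log2 fold of 3.31 ± 0.73 in mRNA (edgeR adjusted p = 0.231; 1.14e-05 by DESeq2 and up to 1 over the alternatives). The part of these shifts in the members' levels was not tested.

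The infection response genes irg-4 and irg-5 kept a small share of their WT level. irg-4 mRNA was 17.3 and 8.83 CPM in the pmk-1 libraries, 21.5-fold below the WT level, and its RPF was 31.9 and 32.3 CPM, 13.2-fold below. Per kilobase of exon, irg-4 was still first among the 10 in pmk-1 worms, at 11.9 CPM. irg-5 mRNA was 22.5 and 22.2 CPM in WT and 1.28 and 0.706 CPM in pmk-1 worms, 22.6-fold lower. Its RPF was 42.9 and 41.0 CPM in WT and 1.95 and 2.61 CPM in pmk-1 worms, 18.2-fold lower. For both genes the 2 pmk-1 RPF libraries lay close together.

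C17H12.8, a CUB-like gene outside the cluster, was among the lowest relative to WT. Its mRNA was 52.0 and 76.3 CPM in WT and 0.675 and 0.942 CPM in pmk-1 worms, 78.0-fold lower and about 1% of WT in each library (1.05% and 1.47%). RPF of C17H12.8 was 94.7 and 122 CPM in WT, but 0.542 and 7.43 CPM in the pmk-1 replicates, from 5 and 74 counts. The log2 fold in RPF was thus -4.74 with both pmk-1 replicates, -7.62 without replicate 2 and -3.87 without replicate 1.

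The dod genes differed in what was left. dod-22 had 0 counts in both pmk-1 mRNA libraries beside 108 and 96 counts (6.69 and 6.11 CPM) in WT, so it was at least 67.9-fold lower, with 3 counts over the group as the floor. In RPF it had 0 and 1 counts in pmk-1 worms beside 49 and 68 in WT, a ratio of 133 with a 95% counting interval of 23.4 to 5295. It was the only member without a read in pmk-1 mRNA. dod-24 mRNA was 8.68 and 12.4 CPM in WT and 0.338 and 0.353 CPM in pmk-1 worms, 29.7-fold lower, and its RPF was 17.5 and 22.8 CPM in WT and 0.759 and 1.61 CPM in pmk-1 worms. dod-17 mRNA was 35.9 and 46.5 CPM in WT and 2.09 and 2.00 CPM in pmk-1 worms, 20.1-fold lower. Its RPF was 58.9 and 84.4 CPM in WT and 2.93 and 8.14 CPM in pmk-1 worms, again with replicate 2 on the high side.

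Among the genes of the cluster with sequence names only, F55G11.2 kept the most. F55G11.2 mRNA was 22.4 and 26.2 CPM in WT and 3.78 and 3.12 CPM in pmk-1 worms, 7.04-fold lower, which left 15.6% and 12.8% of the WT level. Its RPF share was alike, at 15.2% and 18.1%. F55G11.4 mRNA was 32.2 and 46.0 CPM in WT and 1.69 and 2.53 CPM in pmk-1 worms (18.3-fold lower), with RPF of 70.4 and 95.3 CPM in WT and 3.58 and 10.05 CPM in pmk-1 worms. F55G11.8 mRNA was 17.3 and 18.3 CPM in WT and 0.878 and 0.706 CPM in pmk-1 worms (22.4-fold lower), with RPF of 25.97 and 22.12 CPM in WT and 1.19 and 3.72 CPM in pmk-1 worms. K08D8.4 mRNA was 10.7 and 10.3 CPM in WT and 0.743 and 0.706 CPM in pmk-1 worms (14.3-fold lower), with RPF of 11.3 and 9.84 CPM in WT and 0.542 and 1.21 CPM in pmk-1 worms. In each of F55G11.4, F55G11.8 and K08D8.4 the mRNA replicates of pmk-1 worms lay within 1.5-fold of each other and the RPF of replicate 2 was over 2-fold that of replicate 1.

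Over the 10 genes, the log2 fold of pmk-1 against WT had a median of -4.46 in mRNA and -3.70 in RPF, against 0.00 and 0.01 over all genes tested. The mRNA median was the same with dod-22 placed at its bound of -6.09, and the other 9 genes ranged from -6.28 for C17H12.8 to -2.82 for F55G11.2. The median in RPF was -4.48 without pmk-1 replicate 2 and -3.39 without replicate 1. As a share of the WT mean, the median gene kept 5.01% and 3.66% in the pmk-1 mRNA replicates, and 4.48% and 9.67% in the RPF replicates.

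**Figure D2:**
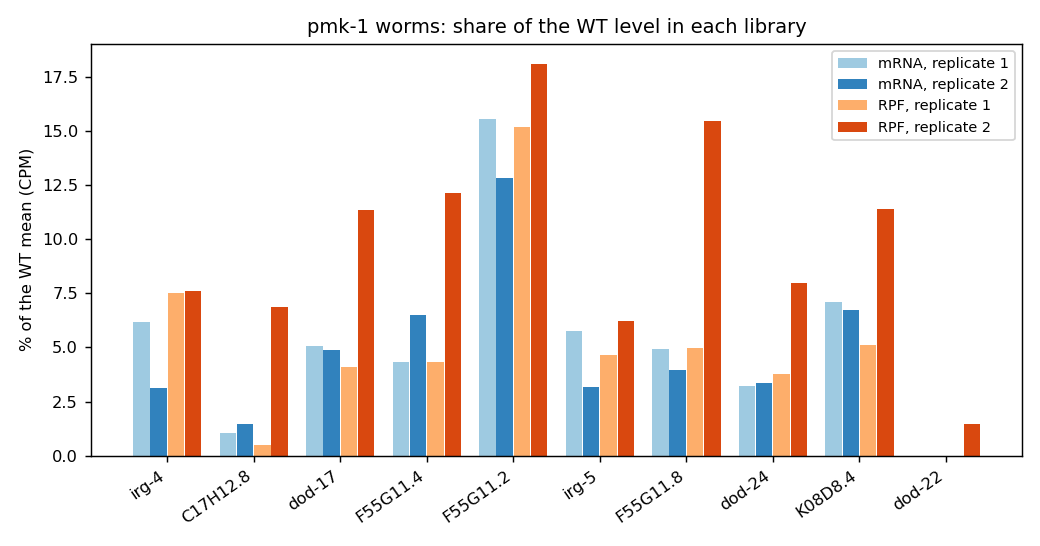
Level in each pmk-1 library as a percentage of the WT mean of the same assay, by gene, with blue bars for mRNA and orange bars for RPF. F55G11.2 kept the largest share (12.8% to 18.1%), dod-22 had no bar in 3 of the 4 libraries, and RPF of replicate 2 was the tallest bar of every gene.

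In ced-3 worms the members were tested, since that contrast did not choose them. It shares the WT libraries with the contrast that did, so choosing genes high in WT favours folds below 0 here too. How far it does was not tested, and the shares given over all genes carry no such choice. The folds were smaller and mostly below 0: the log2 fold of ced-3 against WT was below 0 for 9 of the 10 genes in mRNA (median -0.70, against 0.00 over all genes) and for the same number in RPF (median -0.86, against 0.01). In mRNA, 1 of 10 passed the edgeR test, F55G11.8, where 1.77% of 13536 genes passed (0.369% lower and 1.4% higher). In RPF 0 of 10 passed at an edgeR adjusted p of 0.05, where 0.0554% of 12633 genes passed. At an unadjusted p under 0.05 there were 7 members in mRNA (23.5% of all genes) and 6 in RPF (23.7%). DESeq2 called 4 members in mRNA, where it called 1337 of the 13536 genes fitted, and 5 in RPF, where it called 1314 of 12633. With the replicate block edgeR called 0 genes of the whole table in either assay, so a call lost there says nothing of the single gene. Without a WT replicate only 1 WT library is left, so a call lost there does not speak of the single gene either.

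F55G11.8 mRNA was 17.3 and 18.3 CPM in WT and 8.32 and 6.60 CPM in ced-3 worms. The ced-3 libraries lay below both WT libraries, with a log2 fold of -1.25 ± 0.19 (SE, n = 2 a group, edgeR adjusted p = 0.0492). The call was lost without WT replicate 1 (adjusted p = 0.325), without WT replicate 2 (0.398), without ced-3 replicate 2 (0.113) and with the replicate number as a block (0.0795), while the fold stayed between -1.44 and -1.09 in all alternatives. Its RPF was 25.97 and 22.12 CPM in WT and 10.5 and 10.8 CPM in ced-3 worms, a log2 fold of -1.17 ± 0.41 (adjusted p = 0.161).

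dod-22 had the largest fold of the 10 in ced-3 worms, without passing the test. Its mRNA was 6.69 and 6.11 CPM in WT and 2.30 and 1.37 CPM in ced-3 worms (log2 fold -1.80 ± 0.33, edgeR adjusted p = 0.0686). RPF of dod-22 was 6.59 and 7.20 CPM in WT and 1.597 and 0.867 CPM in ced-3 worms (log2 fold -2.50 ± 0.44, adjusted p = 0.0597). The ced-3 libraries were below both WT libraries in each assay, and DESeq2 called both differences (adjusted p = 0.00409 in mRNA and 0.00118 in RPF). Its adjusted p over all alternatives lay between 0.00409 and 0.406 for mRNA and between 0.000663 and 0.404 for RPF.

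dod-17 and C17H12.8 showed lower ced-3 libraries in both assays as well. dod-17 mRNA was 23.7 and 15.7 CPM in ced-3 worms beside 35.9 and 46.5 CPM in WT (log2 fold -1.06 ± 0.23, edgeR adjusted p = 0.0762). C17H12.8 mRNA was 37.4 and 33.6 CPM beside 52.0 and 76.3 CPM (-0.85 ± 0.21, adjusted p = 0.0900). DESeq2 called both mRNA differences (adjusted p = 0.00842 for dod-17 and 0.0299 for C17H12.8), as did edgeR without the filter (0.00945 and 0.0175). In RPF dod-17 was 46.1 and 31.8 CPM (-0.88 ± 0.45) and C17H12.8 was 48.8 and 41.5 CPM (-1.27 ± 0.75), where the fit's spread for C17H12.8 includes its distant pmk-1 replicates.

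For irg-4, irg-5, K08D8.4 and F55G11.2, no library group overlapped and no fold passed the edgeR test. irg-4 mRNA was 194 and 144 CPM in ced-3 worms (log2 fold -0.73 ± 0.35, adjusted p = 0.275) and its RPF 278 and 193 CPM (-0.85 ± 0.21, adjusted p = 0.0870). irg-5 mRNA was 13.4 and 14.7 CPM (-0.67 ± 0.21, adjusted p = 0.141) and its RPF 23.4 and 26.5 CPM (-0.75 ± 0.18, adjusted p = 0.0863). K08D8.4 RPF was 4.26 and 4.44 CPM beside 11.3 and 9.84 CPM in WT (-1.28 ± 0.32, adjusted p = 0.0916), and its mRNA 7.43 and 6.96 CPM beside 10.7 and 10.3 CPM (-0.54 ± 0.17, adjusted p = 0.137). F55G11.2 had a log2 fold of -0.36 ± 0.17 in mRNA (17.7 and 20.1 CPM in ced-3 worms) and -0.67 ± 0.16 in RPF (29.3 and 27.4 CPM).

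F55G11.4 and dod-24 stood outside the lower pattern. F55G11.4 mRNA was 33.1 and 33.6 CPM in ced-3 worms, between the WT values of 32.2 and 46.0 CPM (log2 fold -0.23 ± 0.22, edgeR adjusted p = 0.574), and its RPF of 74.9 and 77.5 CPM also lay within the WT values of 70.4 and 95.3 CPM. Leaving out WT replicate 2 turned both its folds above 0. dod-24 was the 1 member above WT: its mRNA was 21.2 and 16.3 CPM in ced-3 worms beside 8.68 and 12.4 CPM in WT (log2 fold 0.84 ± 0.23, adjusted p = 0.111). dod-24 RPF was 28.2 and 30.1 CPM beside 17.5 and 22.8 CPM (0.53 ± 0.27, adjusted p = 0.295). So dod-24 was highest in ced-3 worms, intermediate in WT and lowest in pmk-1 worms in every library, and neither ced-3 fold passed the test.

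By library, 8 members were lower in both ced-3 libraries than in both WT libraries in mRNA and 8 in RPF, where 29.7% and 26.6% of all genes were, and dod-24 was higher in both assays, where 30.1% and 29% were. The summed level of the intestinal markers was 4081 to 4915 CPM in ced-3 mRNA beside 5484 to 5907 CPM in WT, and 4749 to 5698 CPM in ced-3 RPF beside 8933 to 10005 CPM in WT. Of the 10 markers, 1 passed the test in mRNA, ifb-2 (an intestinal intermediate filament gene; log2 fold -1.602 ± 0.156, edgeR adjusted p = 0.0362), none was at 0, and their median log2 fold was -0.27 in mRNA and -0.61 in RPF. In RPF edgeR called 0 of the 10, and 6 had an unadjusted p under 0.05, where 23.7% of all genes did. DESeq2 called 4 lower in RPF (asp-1, ifb-2, pept-1 and vha-6) and cpr-6 higher, and edgeR without the filter called 5 lower. Over all genes these 2 settings called 1314 and 1012 in ced-3 RPF. The fold was below 0 for 7 of the 10 and above 0 for 3 in both assays: cpr-6, a cysteine protease gene (2.35 in mRNA, edgeR adjusted p = 0.0661 and 4.02e-06 by DESeq2, up to 0.425 over the alternatives), elt-7 (0.41 in mRNA) and ges-1 (0.28 in mRNA). The ifb-2 call was lost without either WT replicate and with the replicate block (0.0710 to 0.353). Pharyngeal markers summed to 1576 to 1652 CPM in ced-3 mRNA beside 1868 to 2100 CPM in WT, and to 1486 to 1567 CPM in ced-3 RPF beside 2080 to 2285 CPM. Of these 6, 4 were below 0 in each assay (median log2 fold -0.28 and -0.43) and edgeR called 0. Hypodermal markers summed to 662 to 1210 CPM in ced-3 mRNA and 188 to 202 CPM in WT, and their median log2 fold over the 7 tested was 0.55 in mRNA, with 5 above 0 and 2 below. The highest were cuticle collagen genes, sqt-3 (3.93) and rol-6 (3.89), both called higher, and dpy-7 (2.09), whereas the transcription factor genes elt-1 (-0.38), elt-3 (-0.28) and lin-26 (0.15) lay close to 0. Without the filter, edgeR called sqt-3 but not rol-6, and DESeq2 called sqt-3, rol-6 and dpy-7 higher. The part of these shifts in the members' folds was not tested.

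**Figure D3:**
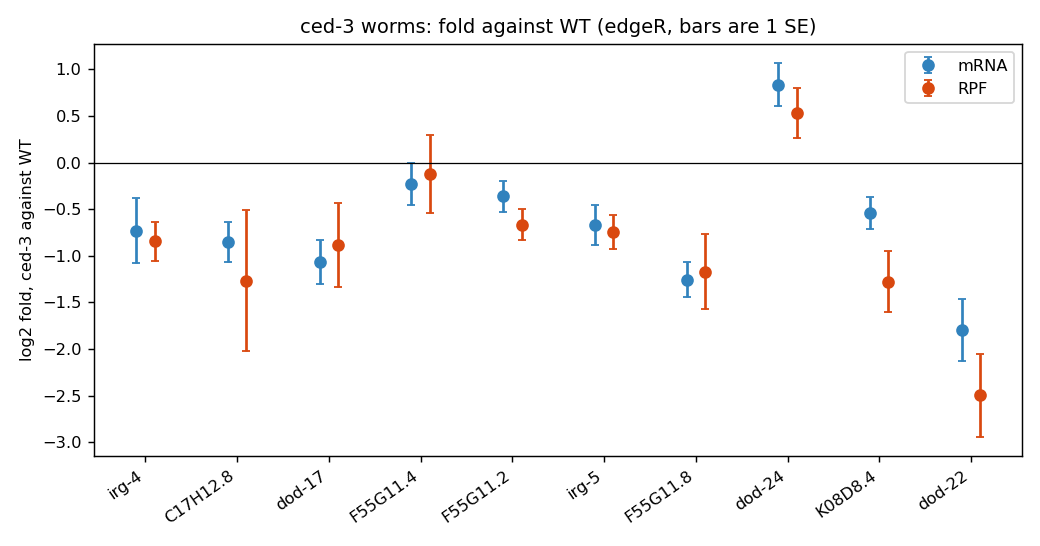
Log2 fold of ced-3 against WT for each gene, with points for the edgeR estimate and bars for 1 SE, in mRNA (blue) and RPF (orange). Points lie below 0 for 9 of the 10 genes, dod-22 is lowest (-1.80 and -2.50) and dod-24 is above 0 in both assays (0.84 and 0.53).

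Set side by side, the members were lower in pmk-1 than in ced-3 worms in every library, a description that again rests on the pmk-1 libraries that chose them. The median gene kept 64.5% and 59.0% of its WT mRNA in the ced-3 replicates, beside 5.01% and 3.66% in the pmk-1 replicates. In RPF the ced-3 replicates kept 60.05% and 45.33%, beside 4.48% and 9.67%. dod-22 was the lowest in both mutants (35.9% and 21.4% of WT mRNA left in ced-3), whereas dod-24 stood at 3.21% and 3.36% in the pmk-1 libraries and at 202% and 155% in the ced-3 libraries.

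Footprints per mRNA were measured in WT worms by comparing the 2 assays in 1 fit of all libraries. Scaled to library size, most members were higher in RPF than in mRNA: the median log2 fold of RPF against mRNA in WT was 0.57, against 0.01 over 13698 genes. This fold was above 0 for 8 members and below 0 for 2. F55G11.2 had an RPF to mRNA ratio of 1.67 and 1.54 in the WT replicates (log2 0.67 ± 0.16, edgeR adjusted p = 0.00974) and irg-5 of 1.66 and 1.58 (0.69 ± 0.19, adjusted p = 0.0224). These 2 of 10 were called, both higher, where 33.2% of all genes were called and 13.6% called higher. For 8 of 10 members both WT RPF libraries were above both WT mRNA libraries, where 35% of all genes were.

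Both assays of a replicate drew on 1 worm sample, so the fit with the worm sample as a block is the paired one, and it called 5 members higher: F55G11.2 and irg-5 again, dod-24 (0.73, adjusted p = 0.00119), F55G11.4 (0.88, adjusted p = 1.57e-05) and dod-17 (0.58, adjusted p = 0.00504). Over all genes the block raised the calls from 4552 to 7177 of 13698, higher and lower together. The 5 members called, of 10, thus lie near the share over all genes, and the share called higher under the block was not counted. Without either WT worm sample, edgeR called 0 members, and the adjusted p of F55G11.2 and irg-5 ranged up to 0.155 and 0.287. The adjusted p of the members added by the block ranged up to 0.328 for dod-24, 0.429 for F55G11.4 and 0.612 for dod-17 over the alternatives. K08D8.4 and dod-22 were the members near or below a ratio of 1 in WT, with ratios of 0.916 and 0.823 for K08D8.4 and of 0.856 and 1.01 for dod-22.

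Translation efficiency, the change in RPF beyond that in mRNA, was not called different between ced-3 and WT for any member. In the interaction test of edgeR, 0 of 10 members and 0 of 13698 genes passed (0%), and 0 members and 221 genes (1.61%) had an unadjusted p under 0.05. DESeq2 called 1 gene and the paired fit 3, none of them a member. The median log2 interaction was -0.14 for the members and 0.06 over all genes. K08D8.4 had the lowest value, -0.67 ± 0.33 (unadjusted p = 0.0730, edgeR), with RPF to mRNA ratios of 0.521 and 0.570 in ced-3 worms, below both WT ratios. dod-22 was next at -0.64 ± 0.55, with ratios of 0.631 and 0.566 in ced-3 worms.

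In pmk-1 worms the ratio of footprints to mRNA differed between replicates. Its median over the 9 members with mRNA counts was 1.31 in pmk-1 replicate 1 and 3.42 in replicate 2, beside 1.504 in both WT replicates and 1.25 and 1.34 in the ced-3 replicates. The median over all genes was 1.04 and 1.01 in the pmk-1 replicates. C17H12.8 ranged most, from 0.692 in replicate 1 to 6.81 in replicate 2, while F55G11.2 was at 1.56 and 2.25. The higher ratios were thus found in 1 of the 2 pmk-1 worm samples.

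**Figure D4:**
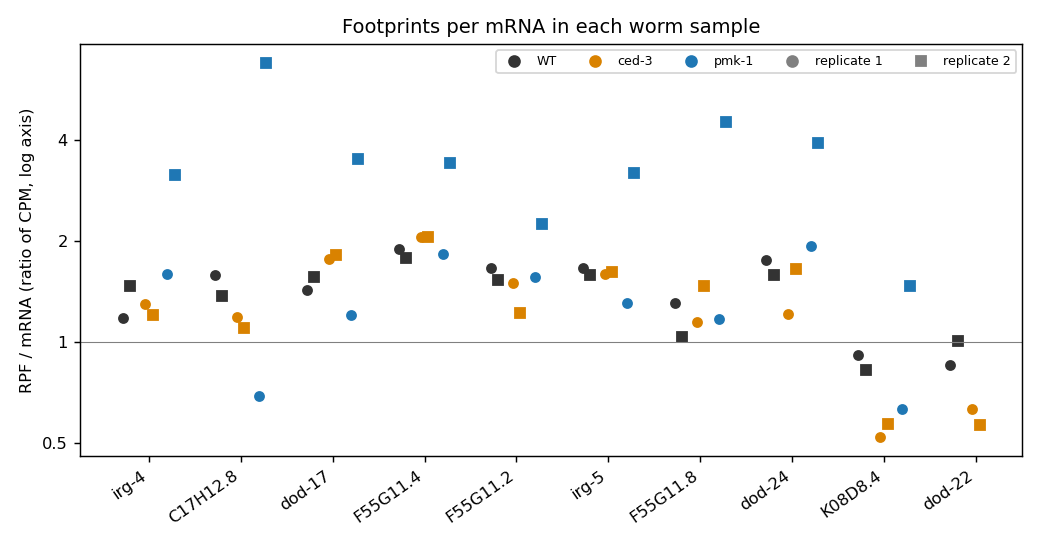
Ratio of RPF to mRNA CPM (log axis) in each worm sample, by gene, with circles for replicate 1 and squares for replicate 2, and no pmk-1 point for dod-22, which had no mRNA counts. The pmk-1 squares lie above all other points for each of the 9 genes (up to 6.81 for C17H12.8), whereas the pmk-1 circles lie among or below the WT and ced-3 points for most genes.

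The 70.9 kb stretch of chromosome IV that holds 7 members holds 16 other protein coding genes, a set defined by position after the counts were seen. Of these, 13 were under 1 CPM in WT mRNA and 7 passed the low-count filter. In pmk-1 mRNA 2 of the 7 were called lower, where 0.392% of all genes were. K08D8.5, the gene next to K08D8.4, was 8.74 and 6.30 CPM in WT and 0.135 and 0.353 CPM in pmk-1 worms (log2 fold -4.87 ± 0.43, edgeR adjusted p = 0.0150). C32H11.4 was 7.62 and 11.5 CPM in WT and 1.35 and 1.18 CPM in pmk-1 worms (-2.91 ± 0.29, adjusted p = 0.0238). Both pmk-1 libraries were below both WT libraries for each.

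Some genes between the members did not share their pattern in ced-3 worms. dct-19, which lies next to dod-24, had 1 and 1 counts in WT mRNA, 37 and 45 in ced-3 and 0 and 0 in pmk-1 worms. Its ratio of ced-3 to WT was 38.7 with a 95% counting interval of 10.4 to 325, and the difference was called (edgeR adjusted p = 0.0415; lost without either WT replicate, without ced-3 replicate 2 and with the replicate block, 0.0747 to 0.395). C32H11.5 mRNA was 1.92 and 0.637 CPM in WT and 12.3 and 24.0 CPM in ced-3 worms (log2 fold 3.81, adjusted p = 0.0536), and in RPF its log2 fold was 4.91 ± 0.48 (adjusted p = 0.0527). C32H11.6, the gene after C32H11.5, was at 0.189 CPM in WT and 1.21 CPM in ced-3 mRNA. Its WT level lay near the 3 counts (0.186 and 0.191 CPM in the WT libraries) that a count of 0 allows, so the size of its mRNA fold is uncertain. Its log2 fold was 2.64 ± 0.57 in mRNA and 4.59 ± 1.04 in RPF (edgeR adjusted p = 0.0749 and 0.0753). Within the stretch, then, the ced-3 libraries held genes above WT (among them dod-24, dct-19, C32H11.5 and C32H11.6) beside genes below it. In mRNA, dct-19 and C32H11.6 passed the low-count filter only through the ced-3 libraries. Their place above WT therefore came with passing it and is a description.

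Over all 72 protein coding genes within 25 kb of a member, 44 passed the filter in mRNA and 3 were called lower in pmk-1 worms: K08D8.5, C32H11.4 and C17H12.6, which lies near C17H12.8. C17H12.6 had 28 and 35 counts in WT mRNA and 1 and 1 in pmk-1 mRNA, a ratio of 31.5 (95% counting interval 8.35 to 265; edgeR adjusted p = 0.0243). The median log2 fold of the 44 was -0.66. In RPF 0 of 42 were called by edgeR (18 at an unadjusted p under 0.05, where 8.68% of all genes were), with irg-6 at the smallest p. DESeq2 called 10 of the 42, all lower, where it called 281 of the 12633 genes fitted. irg-6, an infection response gene of the cluster, had 15 and 18 RPF counts in WT and 1 and 1 in pmk-1 worms (edgeR adjusted p = 0.104; 0.0351 by DESeq2, and 0.00719 to 0.830 over the alternatives). In ced-3 mRNA the calls among the neighbours were dct-19 and ugt-65, a gene near irg-4 (log2 fold -0.73 ± 0.10, adjusted p = 0.0453). The ugt-65 call was lost in the same settings as that of dct-19, with log2 folds of -0.749 to -0.722 over all settings. The 3 calls in pmk-1 mRNA were 0 without either WT replicate or with the replicate block and 1 without pmk-1 replicate 1. They were 7 without pmk-1 replicate 2 or either ced-3 replicate, and 12 by DESeq2.

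**Figure D5:**
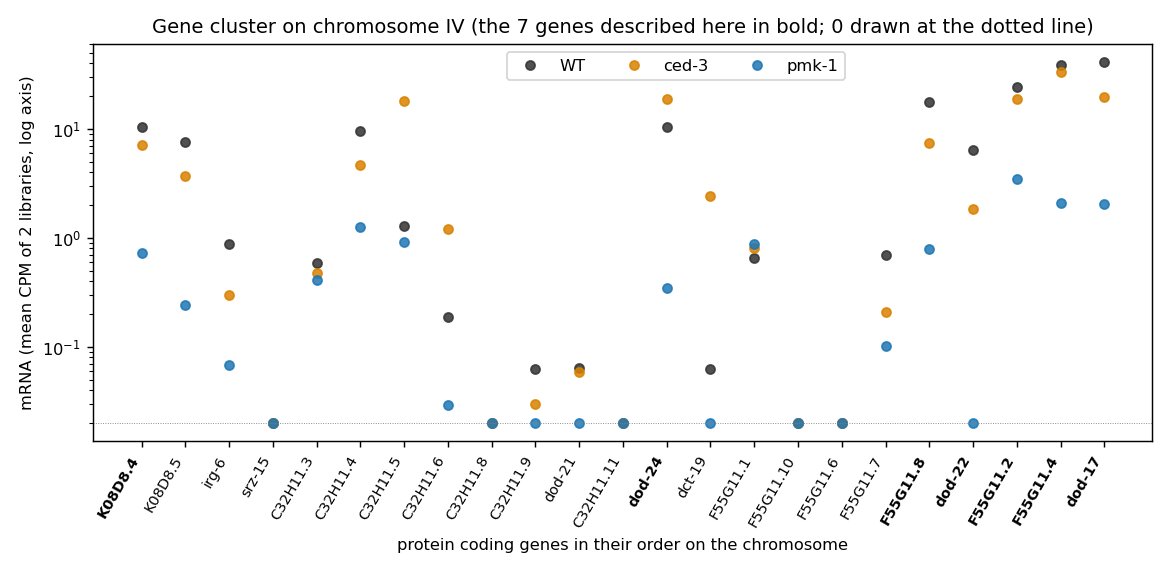
Mean mRNA CPM of the 2 libraries of each genotype (log axis) for the 23 protein coding genes of the stretch on chromosome IV in their order, with the 7 members in bold and 0 drawn at the dotted line. The members lie between 6.40 and 41.2 CPM in WT and at or below 3.45 CPM in pmk-1 worms, K08D8.5 and C32H11.4 are also lower in pmk-1 worms, and dct-19 and C32H11.5 are highest in ced-3 worms.

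Other genes of the pathway place the members in context. The list of other PMK-1 effectors held 9 genes known from immune studies and was chosen with earlier results of these data known. In pmk-1 mRNA 5 of the 8 tested were called lower (median log2 fold -5.13), where 0.392% of all genes were. The choice of the list may have favoured these calls. The 5 were clec-67, a C-type lectin gene, at -7.64 ± 0.52, lys-2, a lysozyme gene, at -5.38 ± 0.42, catp-3, a P-type ATPase gene, at -8.14 ± 0.80, K08D8.5, and T24B8.5, a small gene used as a reporter of PMK-1 activity. T24B8.5 was 7.68 and 7.32 CPM in WT mRNA and had 1 and 2 counts in pmk-1 mRNA, a ratio of 79.5 (95% counting interval 26.9 to 388; edgeR adjusted p = 0.00764). The catp-3 call (edgeR adjusted p = 0.0295) was also lost without the filter (0.173), in the compared groups alone (0.0979), with the replicate block (0.102) and without either ced-3 replicate (0.132 and 0.121). None of the 5 calls held without either WT replicate, and the count was 2 with the replicate block and 3 without pmk-1 replicate 1. clec-60, another lectin gene of the list, went the other way (1.95 ± 0.42, edgeR adjusted p = 0.218). Both DESeq2 and edgeR without the filter called clec-60 higher in pmk-1 mRNA.

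In RPF edgeR called 1 of these 9 effectors lower in pmk-1 worms, T24B8.5 (-3.84 ± 0.30, adjusted p = 0.0228), where 0.166% of all genes were called lower. DESeq2 called 7 of the 9 lower, where it called 281 of the 12633 genes fitted. It did not call clec-60, which was higher in pmk-1 RPF (edgeR log2 fold 2.44 ± 0.69). The T24B8.5 call was lost without either WT replicate, without pmk-1 replicate 1 and with the replicate block (adjusted p = 0.0612 to 0.393). In ced-3 mRNA T24B8.5 was also called lower, at 2.77 and 1.84 CPM beside 7.68 and 7.32 CPM in WT (log2 fold -1.70 ± 0.27, adjusted p = 0.0498). That call was lost with RLE factors (adjusted p = 0.0511), with the replicate block and without ced-3 replicate 2 (0.0817 and 0.123). The median log2 fold of the 8 effectors in ced-3 mRNA was -1.11, beside -0.70 for the members.

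Of 12 genes of the p38 pathway, among them tir-1, nsy-1, sek-1 and atf-7, 0 were called by edgeR in pmk-1 or ced-3 worms in either assay (1 or 2 at an unadjusted p under 0.05 in each), and their median log2 folds lay between -0.29 and 0.11. DESeq2 called 1 of them, the pmk-1 gene itself, lower in pmk-1 RPF. Without the filter edgeR called pmk-1 and vhp-1, a phosphatase gene, lower in pmk-1 RPF. Infection response genes described as independent of PMK-1 gave 0 edgeR calls among 8 tested in pmk-1 mRNA (3 at an unadjusted p under 0.05, where 9.51% of all genes were) and 1 by DESeq2. This was zip-2, a transcription factor gene, at -0.90 ± 0.14 (edgeR adjusted p = 0.0815; 7.82e-05 by DESeq2). zip-2 was also called lower by edgeR without the filter (0.00365), in the compared groups alone (0.0487) and without either ced-3 replicate (0.0471 and 0.0457), and its adjusted p ranged up to 0.645. In ced-3 mRNA the lowest p of that list was that of irg-1 (-2.67 ± 0.80, edgeR adjusted p = 0.135; 0.392 without the filter), which DESeq2 called lower (0.00706). irg-1 was nearly as low in pmk-1 mRNA, at -2.36 ± 0.79 (edgeR adjusted p = 0.418; 0.0588 by DESeq2). In pmk-1 RPF irg-1 was at -2.07 ± 0.79 (edgeR adjusted p = 0.558; 0.181 by DESeq2). Its lower level was thus not particular to ced-3 worms. The lowest fold of the list was that of irg-1 in pmk-1 mRNA and that of irg-2 in pmk-1 RPF, beside list medians of -0.05 and -0.34. irg-2 was at -2.18 ± 0.68 in pmk-1 RPF (edgeR adjusted p = 0.441) and at -1.66 ± 0.61 in pmk-1 mRNA (edgeR adjusted p = 0.455).

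Of 5 other dod genes tested, 0 were called in pmk-1 mRNA by edgeR (1 at an unadjusted p under 0.05), and dod-19 was furthest at -1.99 ± 0.41 (adjusted p = 0.218). DESeq2 called dod-19 lower in mRNA (adjusted p = 0.000127) and in RPF (0.00649), while under the other alternatives its adjusted p was higher, up to 1 in each assay. Their median log2 fold was -0.04. In ced-3 mRNA dod-3 was called higher (3.35 ± 0.37, edgeR adjusted p = 0.0390). The dod-3 call was lost with the replicate block (0.0710), without either WT replicate and without ced-3 replicate 2. Its log2 fold was 2.956 to 3.905 over all settings. Of 8 genes of the insulin pathway, among them daf-2 and daf-16, 0 were called by edgeR in any comparison of a mutant with WT (0 or 1 at an unadjusted p under 0.05 in each), with median log2 folds between -0.10 and 0.04. DESeq2 called 0 of the 8 as well, and edgeR without the filter called akt-1, a kinase gene, higher in ced-3 RPF (adjusted p = 0.0350).

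Across the 6 mRNA libraries the 10 genes followed one another, as their choice favours. Pearson's r of each with the mean of the others, on log2 CPM, was 0.948 for dod-24 and between 0.980 and 0.999 for the other 9, and 0.930 to 0.992 in RPF. The genes outside the set with the nearest pattern in mRNA, of 9655 compared, were flp-27 (r = 0.997), F01D5.1 (0.994), D2007.1 (0.993), ZK1320.3 (0.992), clec-67 (0.989) and nspc-18 (0.989). flp-27, a gene for FMRFamide-like neuropeptides, was 14.96 ± 1.26 CPM in WT, 11.9 ± 1.23 CPM in ced-3 and 4.21 ± 0.0353 CPM in pmk-1 worms (SD, n = 2). F01D5.1 had a steeper course of 64.8 ± 14.0, 38.5 ± 1.16 and 3.67 ± 0.222 CPM. The 6 points of each r are 3 pairs of replicate libraries, so r describes the genotype order and no more.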

How the data were processed

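The authors deposited raw gene counts, whole numbers that were not normalized. Bowtie2, STAR, HTSeq and the build WBcel235 appear in the submitters' processing notes. What each tool did, which annotation was counted, whether strand was used and how multiply matching reads were treated were not given in the sources used here. Reads that related genes share are therefore uncertain for the single gene. Coordinates came from the Ensembl 115 annotation of WBcel235, matched by WormBase identifier for 46603 of 46778 genes.

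Tests used the quasi-likelihood method of edgeR 4.0.16 (R 4.3.3) with the robust option, TMM scaling and filterByExpr (minimum count 10, minimum total 15). Adjusted p-values follow Benjamini and Hochberg over every gene in a fit, and 0.05 was the threshold. The 6 mRNA libraries, the 6 RPF libraries and all 12 libraries were fitted apart, and the last gave translation efficiency and RPF against mRNA. Ratios of RPF to mRNA use the factors of that fit. The SE of a log2 fold is its size over the square root of F. The biological coefficient of variation was 0.2 in mRNA, 0.23 in RPF and 0.216 over all. The fits were tested on simulated counts.

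mRNA and RPF of a replicate share worms per the labels, and their deviations from the group means correlated across 13698 genes (r = 0.17 in WT, 0.62 in ced-3, 0.66 in pmk-1). Alternatives were RLE factors, DESeq2 1.42.0, no filter, no robust option, the compared groups alone, the replicate block and each replicate left out. The members and gene lists were chosen with earlier results of these data known. The text names all members, genes of each list that passed a test or else had the smallest p, and the 6 genes most like the members (log2 CPM with a prior count of 2). clec-60, cpr-6, elt-7, ges-1, dpy-7, elt-1, elt-3, lin-26, vhp-1 and the other counts of catp-3, clec-67 and C32H11.5 were added after their values were seen. asp-1, pept-1, vha-6, C32H11.6, irg-2 and the values of irg-1 in pmk-1 worms were added in the same way. A comparison of the members' sequences with related genes was not made here, and genes within 25 kb took its place, chosen after the files were seen.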

Additional observations from a re-analysis of the deposited data

How the results depend on the processing

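With 2 libraries a group, counts of calls depended strongly on the setting, and the cause was not tested. The listed counts are from edgeR unless DESeq2 is named. The 240 calls of ced-3 against WT in mRNA were 1337 by DESeq2, 827 without the filter, 403 without the robust option, 0 with the replicate block and 0 to 1479 with 1 replicate left out. The 7 in RPF were 1314, 1012, 327 and 0, 198 in the compared groups alone, and 0 to 1249. The 57 of pmk-1 against WT in mRNA were 377 by DESeq2, 221 without the filter, 27 with the block and 2 to 388 with 1 left out, and the 23 in RPF were 281, 212, 0, 47 in the compared groups alone and 0 to 205. RPF against mRNA in WT gave 4552, 7177 with worms paired by the block and 1532 to 4968 with 1 sample left out, 1656 at most without a WT sample. Translation efficiency gave 0, 1 by DESeq2 and 3 with the block. Members called in ced-3 mRNA were 1, 4 by DESeq2, 4 without the filter, 0 with the block and 0 to 3 with 1 left out. In ced-3 RPF they were 0, 5, 4, 1 without the robust option, and 0 to 2. For RPF against mRNA in WT they were 2, 5 with the block, 5 in WT alone and 0 to 3. The 5 other effectors lower in pmk-1 mRNA were 2 with the block and 0 to 5 with 1 left out, and the 3 neighbours were 12 by DESeq2, 8 without the filter, 0 with the block, 7 in the compared groups alone and 0 to 7.

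Across genotypes the replicate numbers share only a number: deviations of same-numbered mRNA libraries correlated at -0.02 (WT with ced-3), -0.10 (WT with pmk-1) and 0.11 (ced-3 with pmk-1), so a call lost under that block says nothing of its strength. Signs changed with a replicate left out for F55G11.4 (log2 fold -0.458 to 0.045 in ced-3 mRNA, -0.314 to 0.113 in RPF, above 0 without WT replicate 2). In translation efficiency they changed for irg-4 (-0.215 to 0.0647, above 0 without WT replicate 2), F55G11.8 (-0.0462 to 0.336, below 0 without WT replicate 2 or ced-3 replicate 2), dod-24 (-0.454 to 0.000325, above 0 without ced-3 replicate 1) and irg-5 (-0.0787 to 0.0337, above 0 without WT replicate 1). No member's fold of pmk-1 against WT changed sign in any setting. RPF libraries held fewer counts than mRNA libraries, which limits dod-22 and K08D8.4 most.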

Other observations

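catp-3 had the widest gap between pmk-1 replicates of the genes named here. It had 1 and 29 counts in pmk-1 mRNA replicates 1 and 2 and 1 and 226 in RPF, beside 4159 and 4205 in WT mRNA and 2723 and 3685 in WT RPF. Its ced-3 libraries held 2969 and 3035 mRNA counts and 1877 and 2422 RPF counts. clec-67 had 4 and 4 counts in pmk-1 mRNA but 1 and 33 in RPF.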
